A study of Mus musculus with 6 samples.

Results

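The genes described here belong to families of amino acid transporters of the plasma membrane and of lysosomes. Some members carry other molecules, such as creatine, monoamines or purine nucleobases. The set was the protein-coding genes named as members of the solute carrier families Slc1, Slc6, Slc7, Slc36, Slc38 and Slc43, less 1 Slc1 gene. The heavy chains Slc3a1 and Slc3a2 were added. There were 54 such genes among the 25904 genes of the table, and 34 of them had enough reads to be tested. Liver messenger RNA had been sequenced from 3 Ptprd+/- (heterozygous, Het) and 3 Ptprd+/+ (wild-type, WT) C57BL/6J mouse samples. Ptprd codes for a receptor-type tyrosine phosphatase, and the series title links its impairment to metabolic syndrome of the liver. The sources used here do not give the kind of altered Ptprd allele, nor the sex, age, diet and sampling time of the mice. The labels do not spell out that each sample is a separate mouse, and p-values measure only the spread between these samples, which may be technical.

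The liver takes up most of the amino acids that arrive from the gut, breaks them down into glucose precursors and urea, and releases glutamine. Many Slc38 carriers bring in small neutral amino acids with sodium, Slc1 holds glutamate and aspartate carriers and exchangers of small neutral amino acids, the cationic carriers of Slc7 bring in arginine, lysine and ornithine, and Slc43 carriers let large neutral amino acids through without an ion gradient. The light chains of Slc7 reach the membrane only when joined by a disulfide bond to a heavy chain, Slc3a1 or Slc3a2. Slc6 carriers move glycine and neutral amino acids and, in other members, taurine, betaine, GABA, creatine and monoamines. Carriers of Slc36 and some of Slc38 sit on lysosomes and endosomes, where they return amino acids from digested protein to the cytosol.

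Total counts ranged from 38918379 to 72954187 in Het libraries and from 37924266 to 48526395 in WT libraries. Ptprd had 54.1, 78.1 and 63.4 CPM (read counts scaled to a common effective library size) in Het 1, Het 2 and Het 3, against 128, 127 and 132 CPM in WT 1, WT 2 and WT 3. All 3 Het libraries lay below the WT libraries, which fits their labels. Alb, the albumin gene of hepatocytes, had 118412 to 144174 CPM in Het and 100040 to 117403 CPM in WT libraries. Of 6 kidney tubule markers, the 3 present in the table summed to at most 0.411 CPM in Het and 0.482 CPM in WT libraries. Of 8 exocrine pancreas markers, the 4 present summed to 12.3 to 19.5 CPM in Het and 9.53 to 15.5 CPM in WT libraries. Het 2 and Het 3 stood apart in clock genes. The clock score, the mean log2 CPM of 7 genes that peak with Dbp minus that of 5 genes that peak with Arntl, was 0.05, 4.20 and 4.43 in Het 1, Het 2 and Het 3, against 1.045, 1.65 and 0.47 in WT 1, WT 2 and WT 3.

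A small number of carriers made up most of the transporter messages in the liver. Levels between genes are compared per kb of exon, from the merged exons of the GENCODE vM21 gene model, which can be longer than the messages that liver makes. Slc38a3 (SNAT3), the system N carrier that exchanges glutamine, histidine and asparagine for protons, averaged 348 CPM per kb over the 6 libraries. Slc38a4 (SNAT4), a system A carrier of small neutral amino acids, averaged 267 CPM per kb. Slc6a13 (GAT2), a carrier of GABA and taurine, averaged 106 CPM per kb, and Slc7a2 (CAT2), a cationic amino acid carrier, 41.3 CPM per kb. On this scale Slc38a3 held on average 37.4% of the summed level of the 54 genes, Slc38a4 28.9%, Slc6a13 11.7% and Slc7a2 4.32%. The next places went to Slc6a12 (BGT1, betaine and GABA) at 33.1 CPM per kb, the heavy chain Slc3a1 at 25.5, Slc38a10 at 18.6 and the heavy chain Slc3a2 at 14.1 CPM per kb. By mean CPM, 2 of the 34 tested genes had at least 1000 CPM, 5 had 100 to 1000 CPM, 10 had 10 to 100 CPM, 11 had 1 to 10 CPM and 6 had less than 1 CPM.

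**Figure D1:**
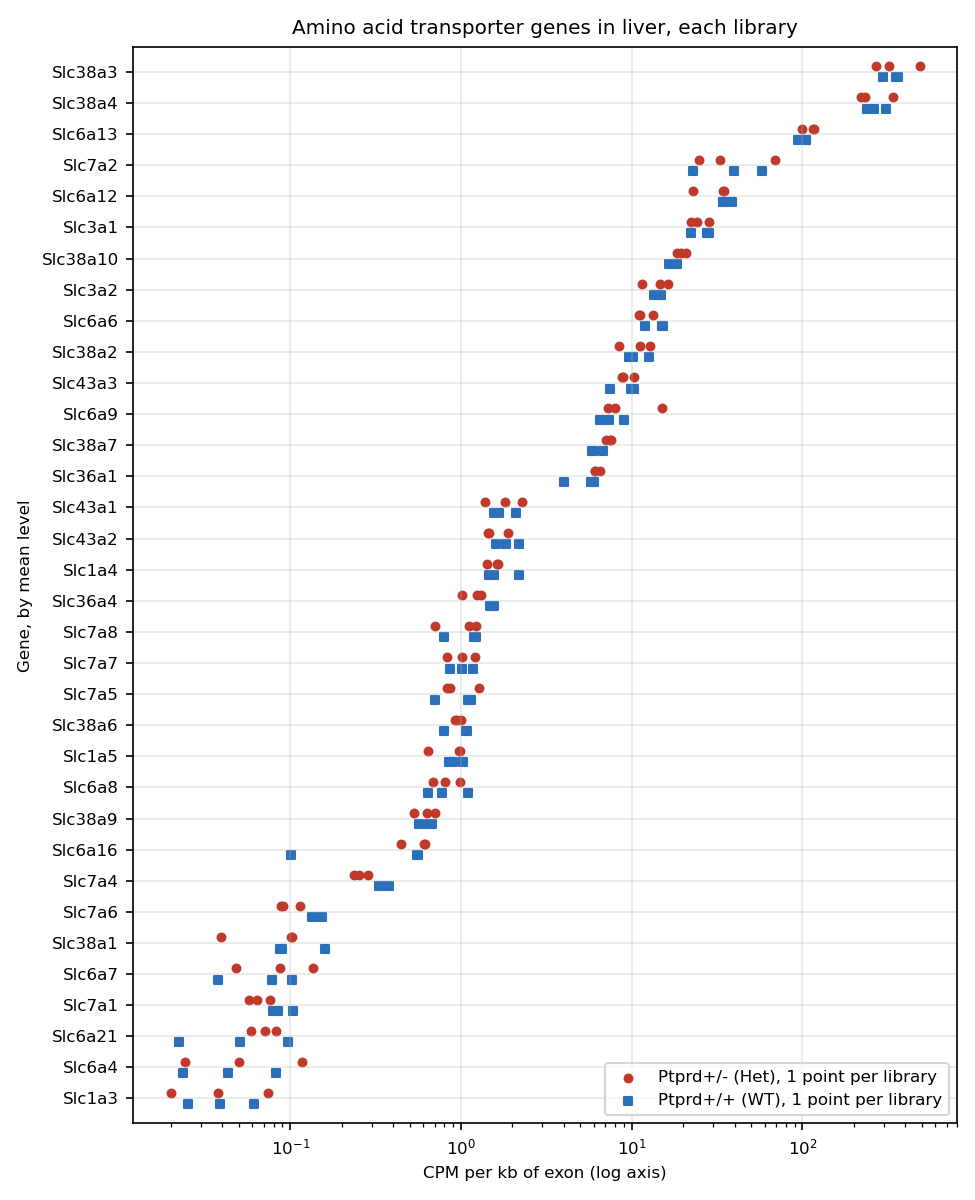
Level of each of the 34 tested amino acid transporter genes in CPM per kb of exon (log axis), with Het libraries as circles above WT libraries as squares, 1 point per library. Slc38a3 and Slc38a4 lie at the top, and in most genes the points of both genotypes overlap.

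For Slc38a3, Slc38a4 and Slc7a2 the genotype means differed by less than the SD between samples of one genotype. Slc38a3 (ENSMUSG00000010064, chromosome 9, 107650634 to 107669530, mm10) had 1417, 2562 and 1699.7 CPM in Het 1, Het 2 and Het 3, against 1912, 1872 and 1559 CPM in WT 1, WT 2 and WT 3. Het 2 was the highest library and Het 1 the lowest, with all WT libraries between them. Its log2 fold change was 0.09 (SE 0.22), with a 95% interval from -0.41 to 0.59. Slc38a4 (ENSMUSG00000022464, chromosome 15, 96994823 to 97055956) had 939, 1445 and 985 CPM in Het, against 1319.6, 1121 and 1024 CPM in WT, a log2 fold change of -0.04 (SE 0.19). Slc7a2 (ENSMUSG00000031596, chromosome 8, 40862396 to 40922308) had 227, 629 and 300.4 CPM in Het, against 531, 365 and 210.1 CPM in WT. The highest Slc7a2 library lay 2.99-fold above the lowest, and its log2 fold change was 0.06 with a wide 95% interval from -0.90 to 1.03 (SE 0.42). Leaving out Het 2 and Het 3, the samples with shifted clock scores, leaves 1 Het library, Het 1. The log2 fold change of Het 1 against WT was -0.33 for Slc38a3, -0.29 for Slc38a4 and -0.69 for Slc7a2.

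These 3 genes ranked the samples alike, with Het 2 highest, WT 1 next and then WT 2, ahead of Het 1, Het 3 and WT 3. The list of 34 genes of the urea cycle and amino acid breakdown had its highest summed levels in the same pair of samples, with 23390 (Het 1), 27105 (Het 2) and 19318 CPM (Het 3), against 29569 (WT 1), 22202 (WT 2) and 22053 CPM (WT 3). The summed level of all 54 transporter genes, which these abundant carriers dominate, was 3663, 5675 and 4122 CPM in Het, against 4856.5, 4401 and 3863 CPM in WT, with means of 4487 ± 1054 CPM (Het) and 4373 ± 497 CPM (WT; SD, n = 3 each). In bulk liver, a change in the share of a cell type and a change in RNA per cell cannot be told apart. Among genes at a mean of 10 CPM or more, 2 of 17 transporter genes, Slc7a2 and Slc6a9, had a highest library more than 2-fold above the lowest, a share of 11.8% beside 7.64% of all 7504 such genes.

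**Figure D2:**
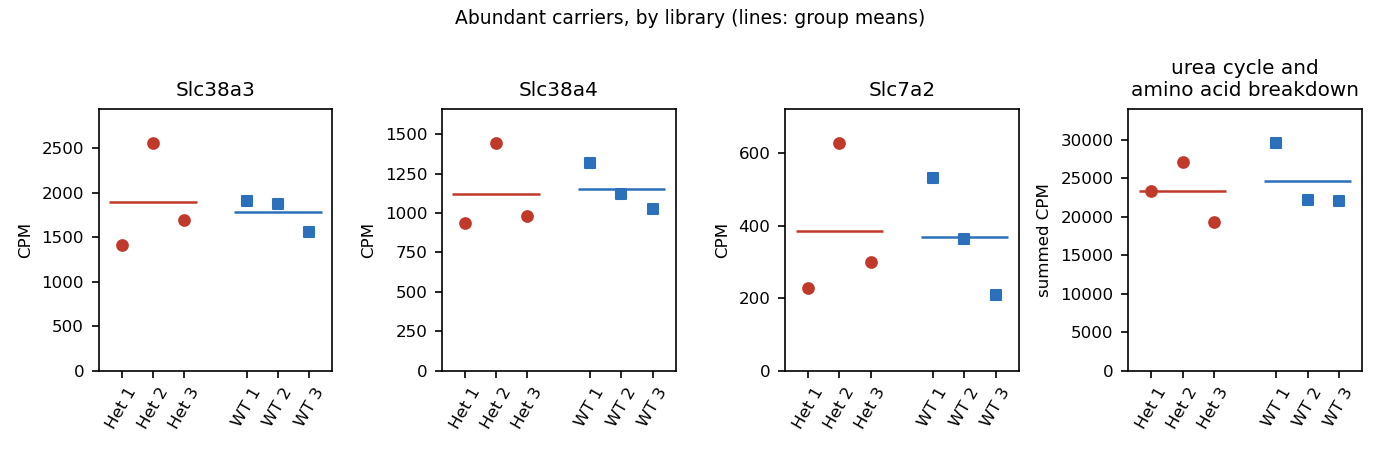
CPM of Slc38a3, Slc38a4 and Slc7a2 and the summed CPM of 34 urea cycle and amino acid breakdown genes in each liver library, Het at left and WT at right, with lines at group means (n = 3 each). Het 2 and WT 1 are the highest of their genotype in all 4 panels.

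Over the whole family no gene was called different between Het and WT samples. In the quasi-likelihood test of edgeR, adjusted over 14606 tested genes, 0 of 34 transporter genes passed an adjusted p of 0.05, and so did 0 of all tested genes (0%). The smallest adjusted p over all tested genes was 0.298, so Ptprd itself was not called despite its lower Het levels. A gene not called is therefore not shown to be unchanged. The smallest adjusted p among the transporter genes was 0.692, and limma-voom and DESeq2 called 0 of them as well, where DESeq2 called 0.447% of all genes. At an unadjusted p under 0.05 there were 2 transporter genes, Slc38a7 higher and Slc36a4 lower in Het, where 7.15% of all tested genes reached that level, 3.39% higher and 3.77% lower. In each direction that was 2.94% of the transporter genes, near the share over all genes. The median log2 fold change of the 34 genes was 0.01, beside -0.004 over all tested genes, with 18 genes above 0 and 16 below. In 6 genes the genotypes did not overlap, 2 with all Het libraries above all WT libraries and 4 with all Het below, where 13.9% of all tested genes had no overlap (7.15% above and 6.72% below). For 1 gene, the smallest two-sided p of an exact permutation test with 3 against 3 libraries is 0.1.

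**Figure D3:**
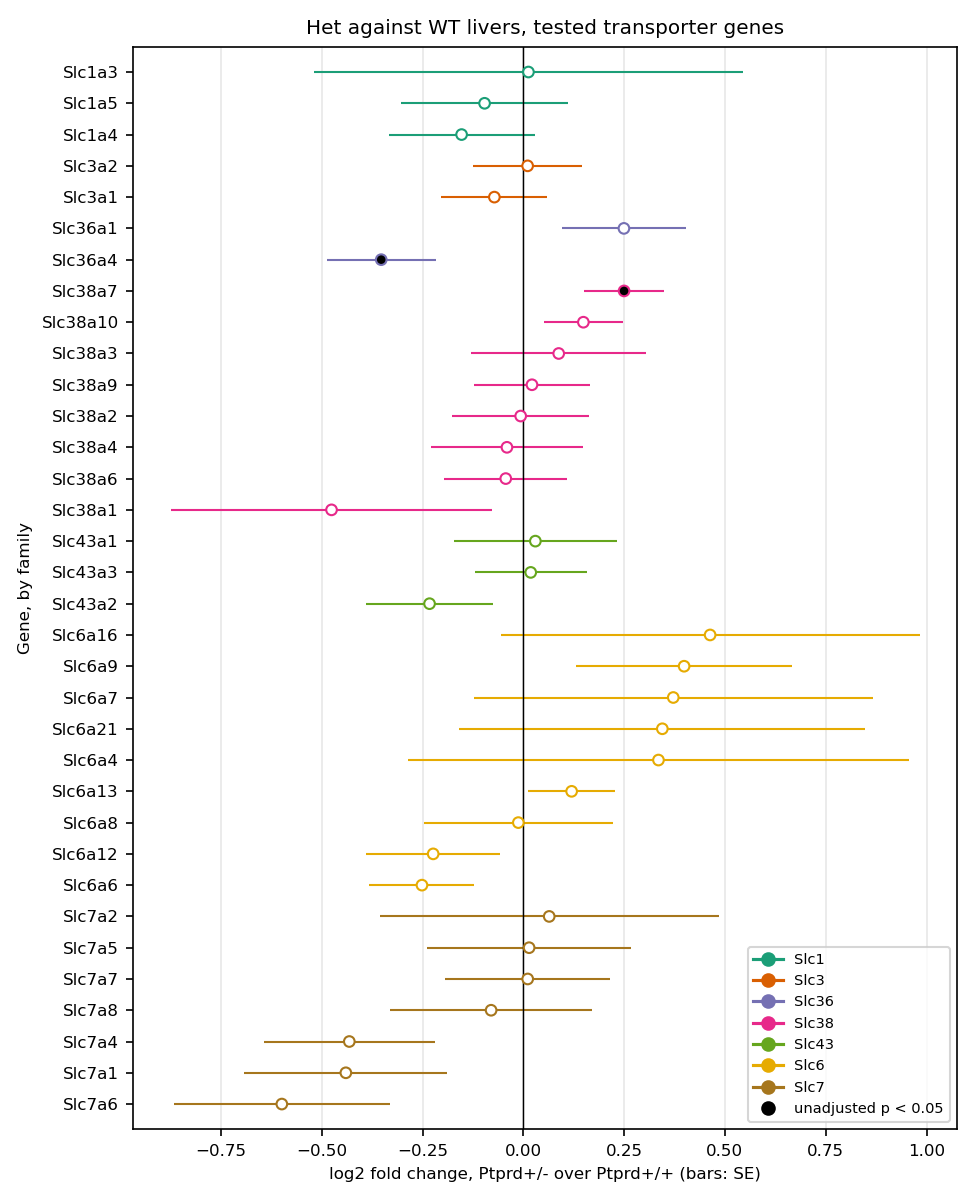
Log2 fold change of Het over WT with its standard error for the 34 tested transporter genes, grouped by family. Filled points mark Slc36a4 and Slc38a7, the genes at an unadjusted p under 0.05, and most bars cross 0.

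Of the carriers known from lysosomes and of Slc36, Slc38a7 and Slc36a1 had every Het library above WT and Slc36a4 had all Het libraries below, but none passed the adjusted threshold. Slc38a7, which exports glutamine and asparagine from lysosomes in human cells, had 30.8, 31.3 and 29.4 CPM in Het libraries, against 28.1, 24.3 and 24.5 CPM in WT libraries. Het 3, the lowest Het library, lay just above WT 1. Slc38a7 (ENSMUSG00000036534, chromosome 8, 95835920 to 95853539) averaged 30.5 ± 0.982 CPM in Het and 25.7 ± 2.11 CPM in WT (SD, n = 3 each), a fold change of 1.19 (log2 0.25, SE 0.10, edgeR unadjusted p 0.0339, adjusted p 0.694). Slc36a1 (PAT1), which carries small neutral amino acids with protons across lysosomal and plasma membranes, had 34.5, 36.9 and 34.5 CPM in Het, against 33.8, 32.7 and 22.5 CPM in WT. The groups did not overlap, but Het 1 and Het 3 lay close to WT 1, and WT 3 was far below all others. The log2 fold change of Slc36a1 (ENSMUSG00000020261, chromosome 11, 55204350 to 55236330) was 0.25 (SE 0.15, edgeR adjusted p 0.746), and 0.09 without WT 3.

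Slc36a4 (PAT4), a high-affinity proline and tryptophan carrier, had 6.64, 8.54 and 8.13 CPM in Het, against 9.62, 10.2 and 9.99 CPM in WT. No Het library reached the WT range. Slc36a4 (ENSMUSG00000043885, chromosome 9, 15709738 to 15743361) was 1.28-fold lower in Het (log2 -0.35, SE 0.14, edgeR unadjusted p 0.0308, adjusted p 0.692). It was the transporter gene with the smallest unadjusted p. Without both Het 2 and Het 3, which leaves Het 1 alone in its group, the log2 fold change was -0.58 for Slc36a4, 0.27 for Slc38a7 and 0.22 for Slc36a1. Slc38a9, the lysosomal carrier that reports arginine to mTORC1, had 8.86, 11.8 and 10.6 CPM in Het, against 10.0, 11.3 and 9.50 CPM in WT, a log2 fold change of 0.02 (SE 0.14). Its genotypes overlapped.

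The promoters of Slc36a1 and Slc38a7, the 2 genes with all Het libraries above all WT libraries, are shown because both hold the E-box letters CACGTG, given in capitals. The motif was chosen after the values had been seen, reads the same on both strands, and stood in 7.15% of all 32851 RefSeq promoter windows of 300 bases. It stood in 8 of the 59 windows of the 39 transporter genes that had any. These were windows of 8 genes, 4 of them tested, the other 2 being Slc43a1 and Slc6a16, whose genotypes overlapped. Each sequence runs 5′ to 3′ from 250 bases before to 10 bases after the start of transcription (RefSeq, GRCm38.p6). A match of letters does not show that a factor binds there.
Slc36a1 (chr11:55204090-55204349, plus strand): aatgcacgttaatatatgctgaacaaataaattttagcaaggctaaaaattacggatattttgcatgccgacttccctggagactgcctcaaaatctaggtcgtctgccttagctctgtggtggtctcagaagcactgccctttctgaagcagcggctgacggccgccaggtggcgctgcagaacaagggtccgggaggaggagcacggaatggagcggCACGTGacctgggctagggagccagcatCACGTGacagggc
Slc38a7 (chr8:95853482-95853741, minus strand): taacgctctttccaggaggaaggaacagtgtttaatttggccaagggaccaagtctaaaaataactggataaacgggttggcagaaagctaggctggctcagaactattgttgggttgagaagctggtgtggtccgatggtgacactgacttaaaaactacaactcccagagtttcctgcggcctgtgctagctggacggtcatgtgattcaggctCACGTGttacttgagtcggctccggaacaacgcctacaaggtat

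**Figure D4:**
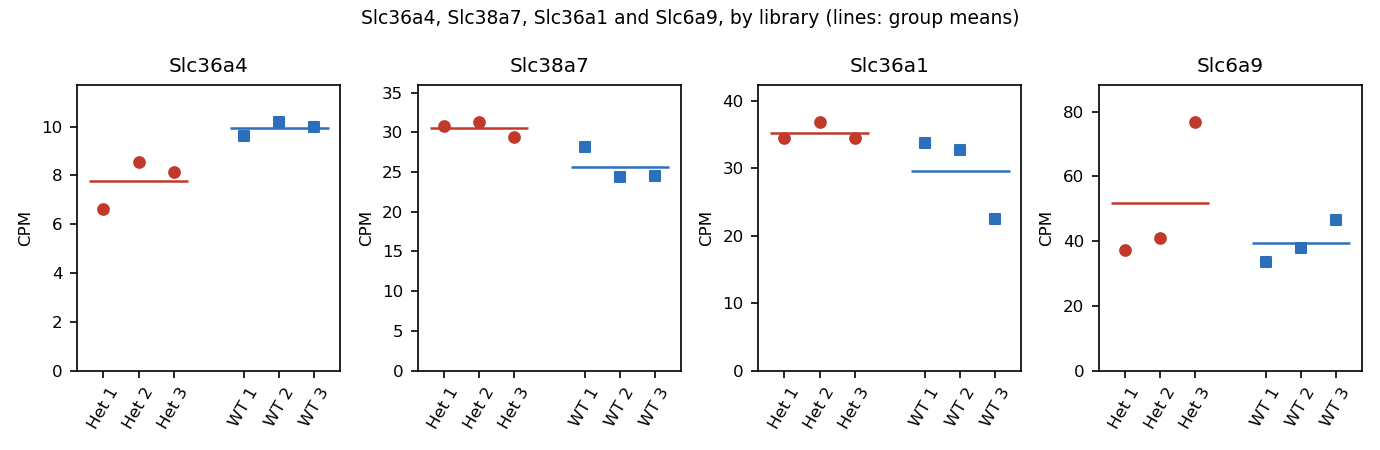
CPM of Slc36a4, Slc38a7, Slc36a1 and Slc6a9 in each liver library, Het at left and WT at right, with lines at group means (n = 3 each). Slc36a4 is lower and Slc38a7 and Slc36a1 are higher in all Het libraries than in all WT libraries, and Slc6a9 is high in Het 3 alone.

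The heavy chains were at like levels in both genotypes. Slc3a2 (4F2hc, also called CD98) had 52.0, 40.5 and 57.2 CPM in Het, against 47.9, 48.0 and 52.7 CPM in WT. The Het libraries spanned a wider range than WT and enclosed it. Its log2 fold change was 0.01 (SE 0.14), with a 95% interval from -0.30 to 0.32. Slc3a1 (rBAT), the heavy chain of renal cystine uptake, had 64.2, 50.7 and 54.8 CPM in Het, against 62.7, 64.6 and 50.8 CPM in WT, a log2 fold change of -0.07 (SE 0.13, 95% interval -0.37 to 0.23). The genotypes overlapped. The known light chains of Slc3a1 were all but missing, with 3 counts of Slc7a9 and 1 count of Slc7a13 over all 6 libraries, beside 25.5 CPM per kb for Slc3a1.

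Light chains that pair with Slc3a2 were low in liver beside their heavy chain. Against 14.1 CPM per kb for Slc3a2, Slc7a8 (LAT2) averaged 1.04, Slc7a7 (y+LAT1) 1.02, Slc7a5 (LAT1) 0.986 and Slc7a6 (y+LAT2) 0.122 CPM per kb. Slc7a5, the large neutral amino acid carrier of growing cells, had 3.18, 3.07 and 4.74 CPM in Het, against 2.63, 4.06 and 4.26 CPM in WT, a log2 fold change of 0.01 (SE 0.25). Its genotypes overlapped, as did those of Slc7a7 (log2 0.01) and Slc7a8 (log2 -0.08). Slc7a6, which exchanges cationic for neutral amino acids, had 0.521, 0.404 and 0.416 CPM in Het, against 0.695, 0.703 and 0.616 CPM in WT. No Het library reached the WT range, on 19 to 31 reads in Het and 23 to 36 reads in WT. It had a log2 fold change of -0.60 (SE 0.27), an edgeR unadjusted p of 0.0546 and an adjusted p of 0.694.

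Cationic carriers other than Slc7a2 were scarce in liver. Slc7a1 (CAT1), the widespread arginine and lysine carrier, had 0.658, 0.873 and 0.738 CPM in Het, against 0.977, 1.19 and 0.910 CPM in WT. Slc7a4, a relative of the cationic carriers, had 1.04, 0.979 and 1.18 CPM in Het, against 1.56, 1.41 and 1.37 CPM in WT. In both genes no Het library reached the WT range, although Het 2 came close to WT 3 in Slc7a1. The log2 fold change was -0.44 (SE 0.25) for Slc7a1 and -0.43 (SE 0.21) for Slc7a4, with edgeR adjusted p values of 0.728 and 0.708. Slc7a4 shares exon bases with P2rx6 on the opposite strand, Slc3a1 with Prepl and Slc7a7 with Oxa1l, and the sources used here do not state the strand setting of the counting.

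Among the Slc38 carriers below the leading pair was Slc38a2 (SNAT2), a system A carrier that many cells raise when amino acids run short. Slc38a2 had 74.0, 98.6 and 113 CPM in Het, against 85.4, 90.0 and 111 CPM in WT. Het 1 was the lowest library and Het 3 the highest, and the log2 fold change was -0.01 (SE 0.17, 95% interval -0.40 to 0.38). Without both Het 2 and Het 3, which leaves Het 1 alone in its group, the value for Slc38a2 was -0.37. It was -0.22 when the clock score was a covariate. Slc38a1 (SNAT1) had 1.76, 0.681 and 1.73 CPM in Het, against 2.76, 1.54 and 1.499 CPM in WT, a log2 fold change of -0.48 (SE 0.40). Only Het 2 lay below the WT range. The log2 fold change of Slc38a1 was -0.13 without WT 1 and -0.15 without Het 2. Slc38a10 had 133, 125 and 118 CPM in Het, against 106, 118 and 116 CPM in WT, a log2 fold change of 0.15 (SE 0.10), with Het 3 just under WT 2. Slc38a6 had a log2 fold change of -0.04 (SE 0.15). The system N gene Slc38a5 had 14 counts in all and was not tested.

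Slc6 carriers summed to 573 ± 31.6 CPM in Het and 569 ± 20.1 CPM in WT (SD, n = 3 each), mostly from carriers of osmolytes and GABA. Slc6a13 had 337, 291 and 335 CPM in Het, against 306, 274 and 306 CPM in WT, a log2 fold change of 0.12 (SE 0.11). Only Het 2 lay within the WT range. Slc6a12, its neighbour on chromosome 6, had 104, 106 and 69.3 CPM in Het, against 118, 105 and 104 CPM in WT, a log2 fold change of -0.22 (SE 0.17) that was -0.05 without Het 3. Slc6a6 (TauT), the taurine carrier, had 93.0, 94.9 and 112 CPM in Het, against 129, 128 and 101 CPM in WT. Het 3 lay within the WT range and WT 3 within the Het range. Slc6a6 had a log2 fold change of -0.25 (SE 0.13), with an edgeR unadjusted p of 0.0889 and an adjusted p of 0.720. Slc6a8, the creatine carrier, had a log2 fold change of -0.01 (SE 0.24).

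Slc6a9 (GlyT1), the glycine carrier, was high in a single sample. Slc6a9 had 37.4, 41.0 and 76.8 CPM in Het 1, Het 2 and Het 3, against 33.6, 37.9 and 46.4 CPM in WT. Het 1 and Het 2 lay within the WT range. The log2 fold change of Slc6a9 (ENSMUSG00000028542, chromosome 4, 117834506 to 117875198) was 0.40 (SE 0.27, edgeR adjusted p 0.751) with all libraries and -0.0033 without Het 3. Het 3 also had one of the 2 shifted clock scores, and with that score as a covariate the log2 fold change was 0.10. Whether the clock shift or another property of that sample set this value was not tested. Slc6a9 shares exon bases with Ccdc24 and B4galt2 on the opposite strand. Of the remaining Slc6 genes, Slc6a16 had 1.87, 1.34 and 1.84 CPM in Het, against 0.304, 1.68 and 1.69 CPM in WT, so that WT 1 alone was low. The proline carrier Slc6a7, the serotonin carrier Slc6a4 and Slc6a21 each averaged less than 1 CPM, with log2 fold changes of 0.37, 0.34 and 0.34 and standard errors from 0.49 to 0.62.

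The 3 tested genes of Slc1 and the 3 of Slc43 overlapped between genotypes. Slc1a4 (ASCT1), an exchanger of alanine, serine, cysteine and threonine, had 5.54, 6.39 and 6.43 CPM in Het, against 8.55, 6.12 and 5.76 CPM in WT, with a log2 fold change of -0.15 (SE 0.18). WT 1 alone was high. Slc1a5 (ASCT2), the glutamine exchanger of dividing cells, had 4.06, 2.68 and 4.09 CPM in Het, against 3.56, 3.73 and 4.31 CPM in WT, with a log2 fold change of -0.10 (SE 0.21). The glutamate carrier Slc1a3 rested on 8 to 24 reads a library and had a log2 fold change of 0.01 (SE 0.53). Slc43a2 (LAT4), a carrier of branched-chain amino acids and phenylalanine, had 14.4, 14.6 and 19.0 CPM in Het, against 21.9, 16.0 and 18.5 CPM in WT. Het 1 and Het 2 lay below the WT range and Het 3 inside it. The log2 fold change of Slc43a2 was -0.23 (SE 0.16), of Slc43a1 (LAT3) 0.03 (SE 0.20) and of Slc43a3, which carries purine nucleobases, 0.02 (SE 0.14). The value for Slc43a2 was -0.11 without WT 1 and -0.38 without Het 3.

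The 20 genes that did not pass the filter on low counts had 1 to 54 counts over all 6 libraries, and 16 of them had 10 or fewer. Slc6a19 (B0AT1), the neutral amino acid carrier of gut and kidney, was the highest of them with 54 counts. Slc7a11 (xCT), the cystine and glutamate exchanger, had 2, 1 and 0 counts in Het and 0, 0 and 1 counts in WT. Slc7a11 is a textbook target of ATF4, the transcription factor of the integrated stress response. Its promoter and that of Slc1a4 are shown because both hold the amino acid response element in the form TGATGNAA, searched on both strands and given in capitals. Slc7a11 holds it once in each orientation.
Slc7a11 (chr3:50443604-50443863, minus strand): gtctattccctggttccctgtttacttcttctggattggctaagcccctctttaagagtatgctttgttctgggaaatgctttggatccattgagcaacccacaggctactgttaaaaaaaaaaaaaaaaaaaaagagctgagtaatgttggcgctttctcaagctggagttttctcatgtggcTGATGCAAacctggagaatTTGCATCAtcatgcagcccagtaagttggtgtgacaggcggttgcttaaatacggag
Slc1a4 (chr11:20332704-20332963, minus strand): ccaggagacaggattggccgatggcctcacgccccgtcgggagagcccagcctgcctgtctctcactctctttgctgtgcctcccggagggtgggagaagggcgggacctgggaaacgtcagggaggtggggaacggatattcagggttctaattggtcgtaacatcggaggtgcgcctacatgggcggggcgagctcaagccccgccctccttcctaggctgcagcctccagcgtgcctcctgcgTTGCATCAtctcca
The letters stood in 3.97% of all promoter windows and in 5 of the 59 windows of transporter genes, which belonged to 4 genes, the others being Slc7a7 and Slc6a21. Neither Slc7a11, at 4 counts in all, nor Slc1a4 with its overlapping genotypes was called different.

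The ATF4 response, by which cells short of amino acids raise synthesis and uptake genes, was followed in a list without transporters. The list was chosen with earlier results of these data known, so its shares only describe these genes and are not independent support. Of its 22 tested genes 0 passed edgeR's adjusted threshold, and 5 (22.7%) were higher at an unadjusted p under 0.05 and 0 lower, beside 3.39% higher and 3.77% lower over all tested genes. The 5 were Trib3, Ddit3 and the aminoacyl-tRNA synthetase genes Aars, Wars and Sars, and the median log2 fold change of the list was 0.05. Trib3, a pseudokinase that holds back ATF4 signalling, had 2.36, 4.56 and 3.61 CPM in Het, against 1.76, 1.62 and 1.28 CPM in WT. It was 2.26-fold higher in Het (log2 1.17, SE 0.27), with an adjusted p of 0.577 by edgeR and 0.0219 by DESeq2. Ddit3 (CHOP), a transcription factor of prolonged stress, had 8.997, 5.85 and 13.1 CPM in Het, against 5.45, 5.31 and 5.11 CPM in WT. Aars, which charges alanine tRNA, had 320.5, 253 and 285 CPM in Het, against 217, 231 and 234 CPM in WT, a log2 fold change of 0.33 (SE 0.11, edgeR adjusted p 0.685). In 4 genes of the list, Trib3, Ddit3, Aars and Wars, every Het library lay above the WT range, with Het 2 close to WT in Ddit3 and Wars. In 1 gene, Aldh18a1, all Het libraries lay below WT (log2 -0.44). Over all tested genes 7.15% had all Het above and 6.72% all Het below. Of the 22 tested genes of the list, 13 had a log2 fold change above 0 and 9 below. Among transporter genes commonly counted as ATF4 targets, Slc3a2, Slc7a5, Slc38a2 and Slc7a1 had log2 fold changes of 0.01, 0.01, -0.01 and -0.44 with all libraries. Without both Het 2 and Het 3, which leaves Het 1 alone in its group, the values were 0.07, -0.19, -0.37 and -0.64. Slc1a4, whose promoter is shown above, had -0.15 with all libraries.

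Among 12 tested amino acid carriers outside these families, mostly of mitochondria and lysosomes, 10 had a log2 fold change above 0, with a median of 0.06, beside 7193 of all 14606 tested genes above 0. Slc25a22, the mitochondrial glutamate carrier, had 228, 218 and 207 CPM in Het, against 168, 145 and 159 CPM in WT. The lowest Het library lay well above the highest WT library. It averaged 218 ± 10.4 CPM in Het and 157 ± 11.4 CPM in WT (SD, n = 3 each), 1.39-fold higher (log2 0.47, SE 0.10), with an adjusted p of 0.531 by edgeR and 0.0239 by DESeq2. It was the 1 gene of this list (8.33%) at an unadjusted p under 0.05 by edgeR, beside 3.39% higher over all tested genes. Of 34 genes of the urea cycle and amino acid breakdown 1 (2.94%), the taurine synthesis gene Csad, was higher at that level and 0 were lower. Csad had 163, 239 and 283 CPM in Het against 111, 106 and 201 CPM in WT. The list as a whole had 21 genes with a log2 fold change below 0 and 13 above, with a median of -0.05. Of 20 tested genes of amino acid sensing upstream of mTORC1 none reached an unadjusted p under 0.05 in edgeR's test, and their median log2 fold change was 0.01.

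Markers of liver cells varied between samples. In Het, 7 of 8 tested markers were lower both for Kupffer cells and macrophages and for leukocytes. At an edgeR unadjusted p under 0.05, 1 of 8 (12.5%) and 2 of 8 (25%) of these lists were lower and 0 higher. Over all tested genes 3.77% were lower and 3.39% higher. Endothelial markers were lower in 5 of 8, and stellate cell and fibroblast markers in 6 of 9. Hepatocyte markers were higher in 5 of 6 and pericentral markers in 6 of 8. Periportal markers were higher in 4 of 8, cholangiocyte markers in 3 of 5 and erythroid markers in 1 of 5. At an edgeR unadjusted p under 0.05, 1 of 6 hepatocyte markers (16.7%) was higher and 1 of 8 pericentral markers (12.5%) was lower. The endothelial, stellate cell and fibroblast, periportal, cholangiocyte and erythroid lists had 0 genes at that level. The 8 Kupffer cell and macrophage markers summed to 549, 298 and 501 CPM in Het, against 653, 405 and 526 CPM in WT, and the 9 leukocyte markers to 14.7, 10.1 and 16.0 CPM in Het, against 24.3, 19.8 and 15.3 CPM in WT. The 8 sinusoidal endothelial markers summed to 302, 351 and 414 CPM in Het, against 373, 323 and 383 CPM in WT, and the 9 stellate cell and fibroblast markers to 306, 332 and 337 CPM in Het, against 372, 330 and 353 CPM in WT. Het 2 was the lowest library for Kupffer cell and leukocyte markers, and Het 1 for endothelial and stellate cell markers. Het 2 was the lowest library for 9 of the 34 transporter genes, Slc1a3, Slc1a5, Slc3a1, Slc3a2, Slc7a4, Slc7a6, Slc7a7, Slc7a8 and Slc38a1. It was the highest for 8, Slc6a4, Slc7a2, Slc36a1, Slc38a3, Slc38a4, Slc38a7, Slc38a9 and Slc43a1. Het 1 was likewise the lowest for 9 of the 34, and the highest for 4. Over all tested genes Het 2 was the lowest in 15.7% and the highest in 14.9%, and Het 1 the lowest in 24.3% and the highest in 22.8%. The part of cell makeup in these values was not tested.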

How the data were processed

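Poly(A) RNA of liver was sequenced from strand-specific libraries, 3 Het and 3 WT, per the labels' protocols. Per the submitters' processing notes, cutadapt 1.10, STAR 2.5.3a and HTSeq 0.6.1p1 were used with build mm10. The sources used here do not give the annotation release, strand setting or handling of multi-mapped reads. The authors deposited raw read counts per Ensembl gene, and 12 other per-library columns of the table were not used, since decimal marks in them had been changed. The authors' deposited table of differential expression was not used either.

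Genes were filtered with filterByExpr (14606 left, with 99.955% of counts), scaled by TMM and tested with edgeR 4.0.16 (R 4.3.3) by the two-sided quasi-likelihood test on genotype, p-values being adjusted by Benjamini-Hochberg over those 14606 genes, with 0.05 as the threshold. The standard error came from the F statistic, and 95% intervals used the fit's total degrees of freedom. DESeq2 1.42.0, limma-voom (limma 3.58.1), other scalings and filters, the replicate number as a block, left-out libraries and a clock covariate were alternatives. The fit was tested on simulated data first. No 2 libraries agreed within sampling noise. The common biological coefficient of variation was 18.5%.

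The 54 genes, the lists and the named genes were chosen with earlier results of these data known. Named genes were the 12 with the smallest unadjusted p, the 8 with the highest level per kb, and Slc3a1, Slc3a2, Slc7a1, Slc7a5, Slc7a11 and Slc38a2. Other transporter genes are given by their values in the family they belong to, and were named after their values had been seen. Exon lengths came from GENCODE vM21 (GRCm38), which matched all 54 genes by Ensembl ID, and promoters from RefSeq, which matched 39 by symbol. Of the Slc1 family 1 gene is not reported here.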

Additional observations from a re-analysis of the deposited data

How the results depend on the processing

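No transporter gene passed an adjusted p of 0.05 under any of the 15 alternatives, and the smallest adjusted p of a named gene was 0.248, for Slc36a4 with the clock score as a covariate. Over all genes, 64 were called by DESeq2, 73 without a filter on low counts and 0 to 1 when single libraries were left out (1 without Het 2). Transporter genes at an unadjusted p under 0.05 numbered 1 of 34 with DESeq2, where 6.79% of all tested genes reached that level. With edgeR they numbered 0 to 4 when single libraries were left out. Without WT 2 there were 0 of 34, beside 4.62% of all tested genes. Without Het 3 there were 4 of 35, beside 6.95% of all tested genes. The median log2 fold change of the transporter genes was -0.0686 without both Het 2 and Het 3, beside -0.02 over all tested genes. It was -0.1034 when the clock score was a covariate, beside -0.0167 over all tested genes. When single libraries were left out it was -0.0688 to 0.0183, lowest without Het 3, where all tested genes had -0.0068. The causes were not tested.

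The replicate numbers were not taken to pair the samples. Same-numbered deviations correlated at -0.07, 0.12 and 0.15, and 2 of 6 samples correlated best with their own number. With the number as a replicate block in edgeR 0 genes were called. In that fit 2 of 34 transporter genes had an unadjusted p under 0.05, beside 7.55% of all tested genes. Slc3a2 changed sign (-0.0031), as it did with limma-voom (-0.0039).

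Of the 20 named genes that were tested, 12 kept their sign under every alternative that tested them, among them Slc36a4 (-0.58 to -0.26), Slc38a7 (0.22 to 0.32) and Slc36a1 (0.09 to 0.35). The other 8 changed sign in at least 1 setting. Among those that kept it, leaving out a single library gave -0.6857 to -0.1289 for Slc38a1, -0.3764 to -0.1083 for Slc43a2, -0.3257 to -0.0479 for Slc6a12, 0.075 to 0.1903 for Slc6a13 and 0.0978 to 0.1932 for Slc38a10. When single libraries were left out, the log2 fold change ranged from -0.1774 to 0.0045 for Slc3a1, -0.0991 to 0.1444 for Slc3a2, -0.1463 to 0.1388 for Slc38a2, -0.1888 to 0.2532 for Slc38a3, -0.26 to 0.0678 for Slc38a4, -0.0033 to 0.5798 for Slc6a9, -0.478 to 0.4226 for Slc7a2 and -0.2226 to 0.1373 for Slc7a5. Without both Het 2 and Het 3 it was 0.1147 for Slc3a1, -0.3264 for Slc38a3, -0.07 for Slc6a9, -0.6949 for Slc7a2 and -0.1933 for Slc7a5. With the clock score as a covariate it was 0.0063 for Slc3a1, -0.1847 for Slc38a3, -0.4504 for Slc7a2 and -0.1231 for Slc7a5. Without both Het 2 and Het 3, 1 Het library is left, whose spread is taken to equal that of WT.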
